A study of Mus musculus with 6 samples.

Results

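The regions described here are those that ATAC-seq found in NMuMG cells after 2 h of TGFβ and neither in vehicle nor after 12 h of TGFβ. They numbered 5097 of the 39435 regions of the union of 3 lists, or 12.9%. They were selected on presence in the lists alone: a peak of at least 150 bp in the 2 h list, and no such peak of the vehicle or the 12 h list within 1000 bp of the merged region. Membership and width therefore come from the same peak calls and are given as a description, and the results rest on measures that the rule did not use, which are place in the genome, sequence and neighbouring genes. A region found at 2 h alone is one that passed the peak threshold of the authors at that time. It is not a measured rise and fall of signal, because a peak under the threshold in another list cannot be told apart from a closed site.

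NMuMG cells are mouse mammary gland cells of epithelial origin, grown as an established line. After 6 h of serum deprivation they were treated with TGFβ1 (5 ng/ml), either for 2 h or for 12 h, and control cells with vehicle (the solvent of the ligand with bovine serum albumin) for 2 h. There were 2 biological replicates per condition, so 6 samples over 3 conditions, and the authors combined both replicates into 1 list of reproducible peaks. No spread between replicates could be computed, and the depth behind each peak is unknown here. Time after TGFβ and total time without serum differed together between the 12 h cells and both the 2 h and the vehicle cells. Their parts in any contrast of 2 h with 12 h cannot be told apart. The study states fewer mapped and filtered reads for both 12 h libraries than for either 2 h library, and the part of depth in the absence of a region from the 12 h list was not tested. The vehicle list held 16765 regions, the 2 h list 32548 and the 12 h list 33079. As a check of the label, the start sites of 2 of 6 epithelial marker genes lay inside a vehicle region, 3 inside a 2 h region and 4 inside a 12 h region: those of Krt8 and Krt18 in every list, that of Cdh1 in both TGFβ lists and that of Cldn4 at 12 h, while those of Epcam and Esrp1 lay in none. The start sites of 0 of 6 genes that mark blood, endothelial, liver, muscle or nerve cells lay inside a region of any list.

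TGFβ binds a receptor kinase complex at the cell surface that phosphorylates SMAD2 and SMAD3, which enter the nucleus with SMAD4 and bind short DNA elements, mostly beside other factors. Among those are the AP-1 factors, dimers of FOS and JUN proteins that bind open enhancers and answer growth factors and stress through the MAP kinases. FOX and CEBP proteins bind enhancers in many epithelia, NF-κB carries inflammatory signals, and CTCF marks insulators and the anchors of chromatin loops.

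Example sequences are printed first. They were picked for the motifs they hold and do not stand for the typical region found at 2 h alone. All are read 5′ to 3′ on the plus strand of NCBIM37 (mm9). The first set shows 3 of the 5 widest regions with both an AP-1 site (TGACTCA or its reverse complement TGAGTCA) and the SMAD palindrome GTCTAGAC in the 500 bp around their centre, more than 1000 bp from any start site. Capitals mark both motifs. The combination occurred in 10 of the 4616 regions that far from a start site (distal regions). Of these 4616, 38 held the palindrome and 33.5% an AP-1 site. The share with both motifs in other classes is not given here, so the count is no sign of preference. The Hrh1 region lies in an intron of the histamine receptor gene, 17140 bp from its nearest protein-coding start site and 1324 bp wide. The Mdga1 region lies between genes and the Polr3e region in an intron.
Hrh1, chr6:114371733-114371884: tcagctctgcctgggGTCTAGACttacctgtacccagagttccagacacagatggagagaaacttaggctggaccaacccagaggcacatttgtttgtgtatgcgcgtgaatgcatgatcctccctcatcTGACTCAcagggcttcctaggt
Mdga1, chr17:29956201-29956322: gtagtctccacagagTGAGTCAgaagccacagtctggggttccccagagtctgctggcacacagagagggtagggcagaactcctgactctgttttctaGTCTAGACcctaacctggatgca
Polr3e, chr7:128087620-128087784: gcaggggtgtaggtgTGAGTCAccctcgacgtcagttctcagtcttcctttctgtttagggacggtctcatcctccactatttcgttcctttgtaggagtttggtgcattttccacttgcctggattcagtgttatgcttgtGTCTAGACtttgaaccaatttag

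The second set shows regions with the most AP-1 sites, in capitals. The 500 bp window of a region of 182 bp (chr6:137791892-137792073), between genes and 88829 bp from the start of Dera, held 7 sites. They lie in a tandem repeat that runs past the end of the region, and 1 of the 7 lies fully inside it, so their number does not stand for 7 separate elements of the region. The region in an intron of the serotonin receptor gene Htr1f had 4 sites outside such a repeat.
Dera, chr6:137792031-137792152: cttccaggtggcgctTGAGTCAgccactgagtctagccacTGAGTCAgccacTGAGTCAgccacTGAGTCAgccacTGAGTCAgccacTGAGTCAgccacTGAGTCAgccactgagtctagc
Htr1f, chr16:64989294-64989577: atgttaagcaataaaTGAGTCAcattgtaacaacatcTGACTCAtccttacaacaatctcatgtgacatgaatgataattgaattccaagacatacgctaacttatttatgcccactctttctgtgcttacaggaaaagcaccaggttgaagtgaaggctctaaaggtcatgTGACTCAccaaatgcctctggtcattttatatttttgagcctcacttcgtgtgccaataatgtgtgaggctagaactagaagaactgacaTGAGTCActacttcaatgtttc

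The third set shows the regions with the most FOX sites, chosen after their values were seen. Capitals mark TGTTTAC and TGTTTGC and their reverse complements GTAAACA and GCAAACA. The stretch from an intron of Foxp1, itself a gene of the FOX family, holds 3 of the 4 sites of its window, and that nearest to Hhip, an inhibitor of hedgehog signalling whose start lies 195379 bp away, holds all 4.
Foxp1, chr6:99123685-99123984: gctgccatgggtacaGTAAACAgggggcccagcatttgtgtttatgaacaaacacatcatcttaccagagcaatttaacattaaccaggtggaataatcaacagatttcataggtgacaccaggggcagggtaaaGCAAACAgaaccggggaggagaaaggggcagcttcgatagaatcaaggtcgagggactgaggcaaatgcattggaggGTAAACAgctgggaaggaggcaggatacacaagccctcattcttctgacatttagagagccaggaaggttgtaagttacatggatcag
Hhip, chr8:82777382-82777681: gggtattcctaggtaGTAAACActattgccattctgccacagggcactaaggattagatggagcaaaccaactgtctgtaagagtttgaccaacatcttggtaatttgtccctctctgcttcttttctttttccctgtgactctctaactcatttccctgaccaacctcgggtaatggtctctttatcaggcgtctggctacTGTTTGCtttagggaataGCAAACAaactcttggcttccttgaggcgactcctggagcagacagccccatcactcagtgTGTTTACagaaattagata

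The last set shows the 2 widest distal regions with a CTCF consensus, in capitals, also chosen after their values were seen. The first lies between genes 56976 bp from the start of Apba1 and the second in an intron of Flt1, a receptor of vascular endothelial growth factor. At 729 and 691 bp both are wider than most regions with this motif, as shown further on.
Apba1, chr19:24036185-24036226: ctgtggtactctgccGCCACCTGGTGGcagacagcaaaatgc
Flt1, chr5:148395690-148395731: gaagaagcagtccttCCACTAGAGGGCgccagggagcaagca

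The regions found at 2 h alone were narrow. Their width ran from 150 to 2536 bp with a median of 347 bp and quartiles of 233 and 484 bp. Together they covered 1991 kb. Of the 5097, 1480 (29.0%) were under 250 bp wide and 85 (1.67%) over 1000 bp, while the other 27451 regions of the 2 h list had a median of 648 bp. A single peak interval made up 5004 of them (98.2%), and 2033 (39.9%) rested on a single line of the list. Regions found at 12 h alone were nearly as narrow, with a median of 370 bp, and those in both TGFβ lists but not in vehicle measured 462 bp in the 2 h list. With the 2 h regions split by width into 10 bins of about equal number, 45.2% of the narrowest bin and 1.29% of the widest were found at 2 h alone. Width had no replicate check.

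**Figure D1:**
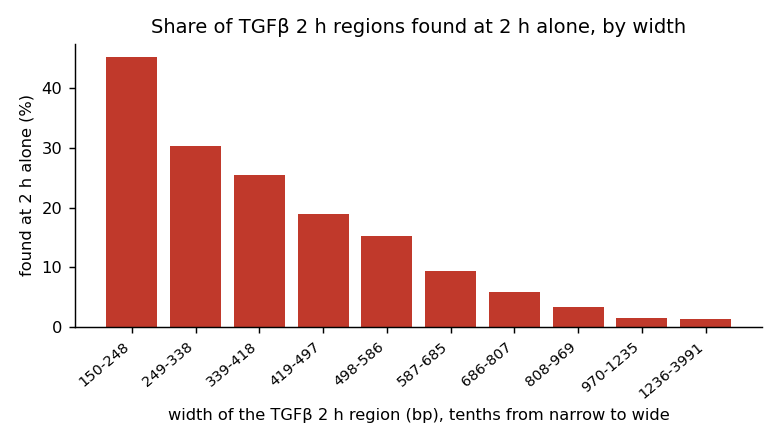
Share of the regions of the TGFβ 2 h list that were found at 2 h alone (vertical axis, percent), in 10 bins of region width (horizontal axis, bp). The share went from 45.2% in the narrowest bin to 1.29% in the widest.

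Few regions lay close to the gap and width limits of the rule, though 29.0% were under 250 bp wide. How close they stood to the peak threshold could not be measured. The members with the smallest gap to a region of another list stood 1001 bp (near Icam4), 1003 bp (near Gm9920) and 1006 bp (near Slc20a1) from a 12 h region, and 413 (8.10%) had a region of another list within 2000 bp. Just outside the rule, 2 h regions near Gm6772, Stim2 and Sod1 were joined to a 12 h region across gaps of 987, 984 and 977 bp. At the width limit, 101 members were under 160 bp wide, and 152 isolated 2 h intervals under 150 bp, the widest of 149 bp, were left out. Peaks too narrow to count were present in the other lists at some members: 30 overlapped one of the vehicle list and 40 one of the 12 h list.

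Most regions found at 2 h alone lay away from start sites. Of the 5097, 481 (9.44%, 95% Wilson interval 8.66 to 10.3) lay within 1000 bp of the 5′ end of a transcript, against 29.0% of all union regions and 7.20% (6.60 to 7.86) of those found at 12 h alone. Another 248 (4.87%) overlapped an exon, 1896 (37.2%) lay in introns and 2472 (48.5%) between genes. Distal members were closer to protein-coding start sites than distal regions found at 12 h alone, with a median distance of 22713 bp (quartiles 8712 and 61317) against 29732 bp (10483 and 88160). Members were not the closest class: the median was 22412 bp in distal regions of all 3 lists and 19490 bp in those shared by vehicle and 2 h. Over all distal union regions it was 24972 bp. Over 100 kb from such a start lay 15.2% (14.2 to 16.2) of members and 20.9% (19.9 to 21.9) of regions found at 12 h alone, against 12.6% of all union regions.

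Across bins of distance to any start site, the share of union regions found at 2 h alone was 4.2% within 1 kb, 17.4% from 1 to 5 kb, and 15.6% (438 of 2806) beyond 100 kb. The share found at 12 h alone was 4.05% within 1 kb, 19.6% from 1 to 5 kb and 26.9% (756 of 2806) beyond 100 kb. Outside the start sites the early share thus stayed between 14.7% and 17.4%, and the late share was above it in each of the 5 bins. Over the chromosomes, the share found at 2 h alone ran from 10.6% on chromosome 11 to 14.5% on chromosome 12.

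**Figure D2:**
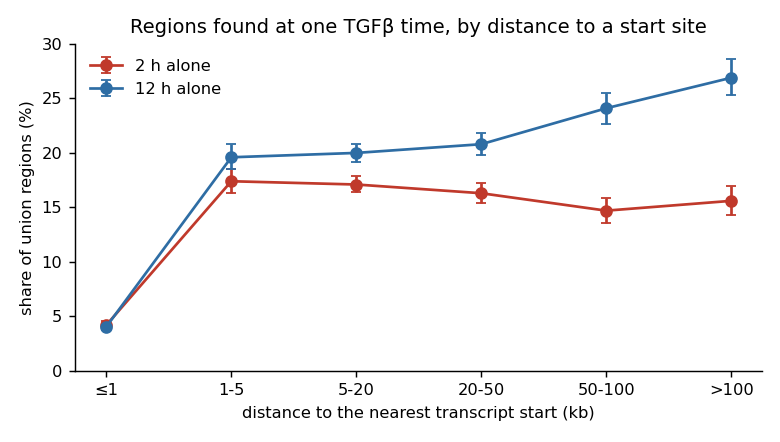
Share of union regions found at 2 h alone or at 12 h alone (vertical axis, percent) by distance to the nearest transcript start (horizontal axis, kb). Points are shares and bars 95% Wilson intervals, which cover counting error only. The 12 h share reached 26.9% beyond 100 kb, where the 2 h share was 15.6%.

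The 481 members at start sites differed in base composition from the promoters found in all 3 lists. Their median ratio of observed to expected CpG was 0.315 and their median GC content 53%, against 0.816 and 65.2% for the start-site regions of all 3 lists. Of them, 391 lay at the transcript start of a protein-coding gene and 245 contained a start site. They belonged to 403 protein-coding genes, and 103 of these (25.6%) had another transcript start at a region of all 3 lists. Only 223 of the 481 lay within 1000 bp of the 5′ end of a whole gene, so the rest sat at internal or non-coding starts.

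The 5 widest members at protein-coding starts were those of Fst, Wnt4, Fzd8, Rin3 and Fam46a. The region at Fst, which encodes follistatin, a secreted protein that binds activin, spanned 1741 bp (chr13:115247437-115249177) and contained the start site. That at Wnt4, a secreted WNT ligand needed for mammary side branching, spanned 1704 bp (chr4:136832641-136834344) with 81.6% GC in its central 500 bp. Fzd8, a WNT receptor, had a region of 1700 bp over its start, and Rin3, which encodes a RAB5 exchange factor, one of 1502 bp (chr12:103520962-103522463). The region at Fam46a, 1394 bp wide, ended 152 bp from the start. Of the 5 widest members of all, that near Ssr2 measured 2536 bp and lay between genes, 12347 bp from its start. One of 2468 bp overlapped an exon of Plin1, which encodes a coat protein of lipid droplets. The others lay near 4930420K17Rik, Zfp706 and Sox10 (1922, 1907 and 1900 bp).

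Motif content differed between members and the regions found at 12 h alone, called the 12 h alone class. Among distal regions, of which 16.5% were found at 2 h alone, an AP-1 site lay within the central 500 bp of 1546 of 4616 members (33.5%, 32.1 to 34.9) and of 2935 of the 5976 regions in the 12 h alone class (49.1%, 47.8 to 50.4). The difference was -15.6 percentage points (95% Newcombe interval -17.5 to -13.8), and the share was lower on 20 of 20 chromosomes, with differences from -22.2 to -6.50 points. Against regions in both TGFβ lists but not in vehicle (51.6%) the difference was -18.1 points (-19.8 to -16.4). Of windows of the same size 5 kb to either side, 7.96% held an AP-1 site, a difference of 25.5 points (24.1 to 27.0), the largest of the panel in percentage points though not as a ratio, which was larger for CTCF and NF-I. Regions shared by vehicle and 2 h and absent from the 12 h list had a share of 26.7%, lower than that of members by 6.76 points (3.30 to 10.0).

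More than 1 AP-1 site was found in 183 members (3.96%, 3.44 to 4.57) and in 9.64% (8.92 to 10.4) of the 12 h alone class. Within members the share with AP-1 was 23.2% in the narrowest of 4 width classes, up to 231 bp, and 37.0%, 38.6% and 35.3% in the others. By place it was 34.2% in introns, 33.6% between genes and 27.0% (21.9 to 32.9) in exons. The lower share of members was also seen within strata: the odds ratio of members to the 12 h alone class was 0.537 (0.495 to 0.582) within 5 bins of width and 0.532 (0.492 to 0.577) within 5 bins of GC content. Distal members had a median GC content of 46.4% and regions found at 12 h alone 45.2%.

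FOX sites went the other way. TGTTTAC lay in 608 members (13.2%, 12.2 to 14.2) and in 7.55% of the 12 h alone class, a difference of 5.62 points (4.45 to 6.82) that was positive on 19 of 20 chromosomes. In 12 h alone the share was near that of the flanks of members, 7.27%. A comparison of all 8192 words of 7 bases between both classes, made after the panel, put TGTTTGC (as its reverse complement GCAAACA) first, with 17.8% of members against 9.14%, a difference of 8.69 points (7.38 to 10.0), and TGACTCA last. As a word picked by that ranking, TGTTTGC is a description. The words next to TGACTCA at the bottom were TGAATCA (10.1% against 20.7%) and TGACTAA (10.6% against 19.5%), each 1 base from the AP-1 consensus. Of the first 7 words, 6 contained AAACA and 1 contained AAAC, the core of the FOX site.

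A FOX site in this paragraph is TGTTTAC or TGTTTGC. As TGTTTGC was picked by the ranking of members against 12 h alone, contrasts of these shares with that class are a description. Either FOX form was present in 1321 members (28.6%, 27.3 to 29.9), in 16.3% of the 12 h alone class, in 21.3% of those in both TGFβ lists only and in 35.9% (32.7 to 39.3) of those shared by vehicle and 2 h. Vehicle and 2 h was thus highest for FOX and lowest for AP-1, with members next in both orders. Among members, 28.1% (26.0 to 30.4) of those with an AP-1 site and 28.9% (27.3 to 30.5) of those without had a FOX site, with intervals that overlapped. AP-1 and FOX occurred together in 435 members (9.42%), FOX without AP-1 in 886 (19.2%, against 8.70% at 12 h alone), and AP-1 without FOX, CEBP or CTCF in 811 (17.6%, against 33.8%). None of the 4 was found in 1419 members (30.7%), close to the 30.9% at 12 h alone.

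CEBP sites, here TTGCNNAA, lay in 1225 members (26.5%, 25.3 to 27.8) and in 19.0% of the 12 h alone class, a difference of 7.55 points (5.93 to 9.16) seen on 20 of 20 chromosomes. In vehicle and 2 h the share was 34.4%, higher than in members, which stood at -7.89 points (-11.5 to -4.41) from it. The NF-κB consensus was found in 8.19% (7.43 to 9.02) of members and 4.13% of regions found at 12 h alone, a difference of 4.06 points (3.13 to 5.01), and 4.15% of the flanks of members held it. In vehicle and 2 h the NF-κB share was 9.21% and in all 3 lists 7.96%. Either FOX form and a CEBP site together were present in 414 members (8.97%, 8.18 to 9.83) and in 3.58% (3.14 to 4.08) of the 12 h alone class. The share was higher in vehicle and 2 h, 13.9% (11.6 to 16.5). These shares are a description, because they include the picked word TGTTTGC. Its last bases TTGC can also begin a CEBP site, so a single stretch can count as both. Within GC or width bins the differences for FOX (TGTTTAC), CEBP and NF-κB kept their direction, with odds ratios from 1.55 to 2.08.

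**Figure D3:**
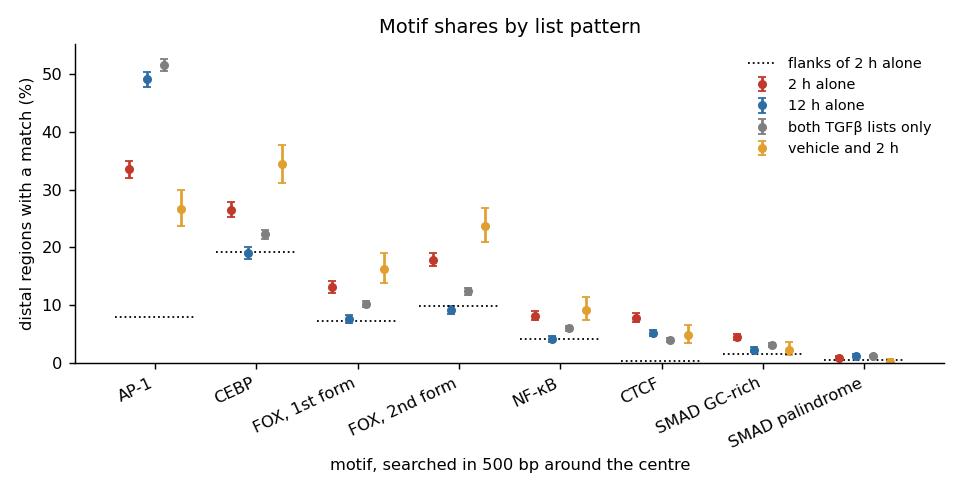
Share of distal regions with at least 1 match (vertical axis, percent) for 8 motifs (horizontal axis) in 4 list patterns. Points are shares, bars 95% Wilson intervals, and dotted lines the share in windows 5 kb to either side of the members. Members (red) had 33.5% with AP-1 and regions found at 12 h alone (blue) 49.1%, and the order was the reverse for both FOX forms and CEBP.

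SMAD elements were rare. The palindrome GTCTAGAC was found in 38 distal members (0.823%, 0.600 to 1.13), in 1.24% of the 12 h alone class, in 1.22% of those in both TGFβ lists only and in 0.454% of flanks. Lower shares than in members were found in all 3 lists (0.722%) and in vehicle and 2 h (0.126%, 1 of 793 regions). The difference from 12 h alone was -0.415 points (-0.800 to -0.0205), and its interval held 0 once widened for the 22 motifs of the panel (-1.02 to 0.218). The GC-rich SMAD element GGCGCC stood at 4.46% (3.90 to 5.10) in members and 2.33% at 12 h alone, 2.14 points higher (1.44 to 2.86), and this was kept within width bins (odds ratio 1.86, 1.49 to 2.32) and GC bins (1.73, 1.39 to 2.16). Against both TGFβ lists only it was 1.36 points higher (0.695 to 2.08), with an odds ratio of 1.44 (1.20 to 1.73) within GC bins and of 1.13 (0.922 to 1.39) within width bins, which held 1. Regions of all 3 lists had a higher share of GGCGCC than members, 5.57% (5.03 to 6.16), and vehicle and 2 h had 2.27%.

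The share with the CTCF consensus varied with width. It lay in 362 distal members (7.84%, 7.10 to 8.65), against 5.12% at 12 h alone, a difference of 2.72 points (1.78 to 3.69), and in 0.352% of flanks. By width it was present in 233 of 1163 (17.8% to 22.4%) of the narrowest of 4 width classes of members, 6.44% and 4.08% of the middle ones and 0.695% (0.353 to 1.37) of the widest. Against both TGFβ lists only (3.95%), the difference of 3.90 points (3.05 to 4.79) turned to an odds ratio of 0.857 (0.726 to 1.01) within width bins. Against vehicle and 2 h (4.79%), the odds ratio within width bins was 0.629 (0.432 to 0.914), with members lower. Against 12 h alone the direction held within width bins (odds ratio 1.38, 1.17 to 1.62), but the difference shrank to 0.599 points (-0.241 to 1.47) when peaks under 250 bp were left out. AP-1 and CTCF sites shared 36 members (0.780%).

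Of the 22 motifs searched, with intervals widened for 22 comparisons, 7 were more frequent in members than in regions found at 12 h alone (FOX, CEBP, NF-κB, CTCF, GGCGCC, the SP/KLF box GGGCGGGG and the E-box CAGGTG), 2 less frequent (AP-1 and RUNX, AACCACA) and 13 had an interval that held 0. The last of these groups is not shown to be equal. Against both TGFβ lists only, 5 were more frequent, 1 less and 16 held 0. Against vehicle and 2 h, of which there were 793 distal regions, AP-1 was more frequent, CEBP less, and 20 held 0. Against their own flanks 12 were more frequent and 0 less. The SP/KLF box stood at 3.12% in members, 1.92% at 12 h alone, 4.16% in vehicle and 2 h and 6.35% in all 3 lists. RUNX stood at 16.3% in members and 19.2% at 12 h alone, and CAGGTG, the site of SNAI and ZEB repressors, at 31.5% and 27.3%, with 30.8% in the flanks of members.

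The position of the sites within the regions was alike in members and the 12 h alone class for AP-1 and more central in members for FOX, CEBP and NF-κB. For AP-1, 43.6% of the 1747 matches in members fell in the central 100 bp of the 500 bp window, and 43.4% of 3593 at 12 h alone. For TGTTTAC, 28.7% of 644 matches were central in members and 19.9% of 473 at 12 h alone, against the 20% that an even spread over the window would give. Of TGTTTGC matches 278 of 927 were central in members and 19.2% at 12 h alone, and CEBP gave 25% and 18.2% and NF-κB 32.5% and 18.4%. In vehicle and 2 h these sites were about as central as in members, with 30.4% for TGTTTAC, 30.6% for TGTTTGC, 25% for CEBP and 33.3% for NF-κB, and TGTTTAC gave 25.2% in both TGFβ lists only. CTCF was the most central of these motifs, with 77.2% in members and 72.7% at 12 h alone.

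**Figure D4:**
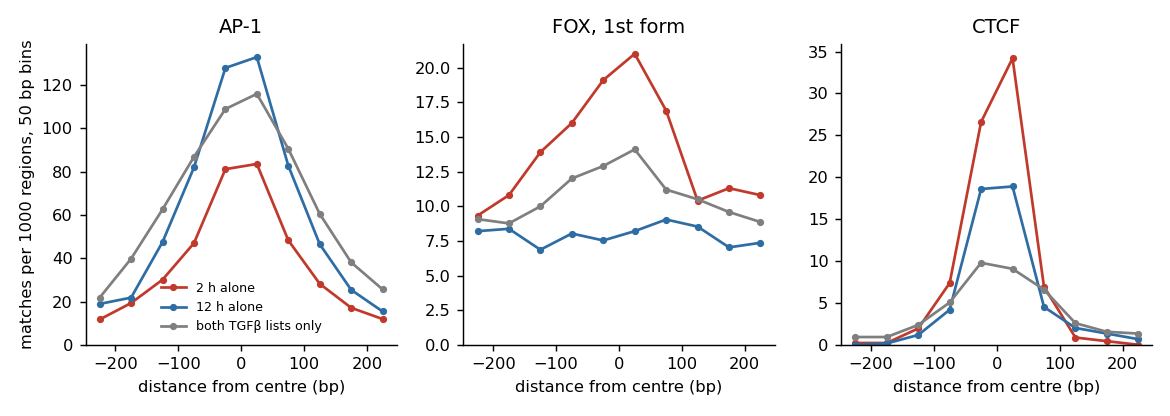
Matches per 1000 distal regions in bins of 50 bp (vertical axes) by distance from the region centre (horizontal axes, bp), for AP-1, the FOX form TGTTTAC and CTCF. AP-1 was central in each class, while FOX was central in members (28.7% of matches in the central 100 bp) and spread over the window in regions found at 12 h alone (19.9%).

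Members lay somewhat closer to vehicle regions than regions found at 12 h alone did. Within 10 kb of a vehicle region were 1342 (26.3%, 25.1 to 27.6) of members, 19.3% (18.3 to 20.3) of those found at 12 h alone and 24.8% (24.1 to 25.7) of those in both TGFβ lists only. The median distances were 24653, 36942 and 27230 bp. The rule itself removes vehicle regions closer than 1000 bp from all 3 classes. The nearest union region of a member was another member for 726 (14.2%, 13.3 to 15.2), a region found at 12 h alone for 771 (15.1%), of both TGFβ lists only for 1409 (27.6%) and of all 3 lists for 1989 (39.0%), while these classes made up 12.9%, 16.3%, 28.5% and 38.4% of the union. Regions found at 12 h alone had one of their own kind as nearest region in 20.1% (19.1 to 21.1).

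Most members stood alone. With a gap of at most 25 kb between neighbouring members, 3954 (77.6%) had none beside them, 441 pairs stood apart from others, and 261 (5.12%) formed 82 runs of 3 or more, none longer than 5. Regions found at 12 h alone were much the same, with 77.4% alone, 4.52% in runs of 3 or more and none longer than 5. One of the 3 runs of 5 members lay at the genes of keratin 8 and keratin 18, the filament pair of simple epithelia (chr15:101826191-101887569, 61.4 kb). It held 11 union regions, 5 found at 2 h alone and 6 in all 3 lists, and none of both TGFβ lists only or of 12 h alone. The regions over both keratin start sites were in all 3 lists. The members between and around them measured 407, 414, 254, 854 and 1107 bp, all between genes, with an AP-1 site in 1 and a FOX site in 1. The second run lay across D930015E06Rik, 21034 bp or more from Tlr2, a receptor of bacterial lipopeptides (chr3:83666723-83719960), where all 5 union regions were found at 2 h alone. The third lay in Fryl (chr5:73564146-73608907), with 5 members among 6 union regions.

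By nearest protein-coding start site within 100 kb, 4323 members were assigned to 3389 genes, 2676 of them with 1 member. The highest counts were 10 at Pde4d, a phosphodiesterase that breaks down cyclic AMP, among 44 union regions, 8 at the transporter gene Slc22a23 (among 17), 6 each at Fryl (12), Kalrn (17) and Nfia (11), and 5 at Kank1 (15), which was tied with other genes and named by alphabetical order. Nfia encodes a nuclear factor I protein, and its 6 members lay in introns 24923 to 75009 bp from a start, with 0 regions found at 12 h alone at the same gene. A long gene with many regions has more chances of a member, so these counts are no measure of preference.

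Of union regions at most 100 kb from a protein-coding 5′ end, 12.4% belonged to the 2 h alone class and 14.4% to 12 h alone. Near the annotated genes of 11 lists linked to TGFβ or to epithelial cells the shares were 12.1% (197 of 1623 regions, 10.6 to 13.8) and 13.2%, and the interval of the first held the share near protein-coding genes at large. By list they ran from 6.25% to 16.8%.

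Among antagonists of the pathway, 13 of 94 regions (13.8%, 8.26 to 22.2) were found at 2 h alone. Besides Fst, members lay 4053 bp from the 5′ end of Smad7, the inhibitory SMAD, 16301 bp from that of Ski within its intron (chr4:154579940-154580400) and 18880 bp from that of Skil (chr3:30974603-30975100), both of which encode repressors of SMAD complexes. Ski had 4 members among 15 regions within 100 kb. Ligands, receptors and SMADs had 20 of 156 (12.8%, 8.45 to 19.0). A region of 627 bp lay 960 bp from the 5′ end of Inhbb. One of 715 bp overlapped an exon of Inhba, which like Inhbb encodes an activin β subunit. One of 228 bp lay in an intron of the receptor gene Acvr1, 1608 bp from its 5′ end. Another, of 418 bp with an AP-1 site, lay in an intron of Smad3 (chr9:63595576-63595993). Acvr1 had 4 members among 13 regions.

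The genes of the AP-1 family had 20 of 187 (10.7%, 7.03 to 15.9). Members lay at an internal start of Mafg, 5091 bp from the 5′ end of Jund and in an intron of Bach1. Immediate early genes and inhibitors of MAP kinases had 24 of 217 (11.1%, 7.55 to 15.9), with members 6973 bp from Dusp6 and 17108 bp from Dusp5, phosphatases that switch off ERK, and 8169 bp from Btg2, a growth inhibitor with 4 members among 11 regions. The transcription factors of the epithelial-mesenchymal transition had 6 of 52 (11.5%, 5.40 to 23.0), none within 40 kb of a listed gene's 5′ end, the closest standing 40002 bp from Tcf4 and 47818 bp from Snai1.

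Epithelial genes had members close by. For junctions and keratins 25 regions (13.0%, 8.98 to 18.5) were members, while 9.90% belonged to the 12 h alone class. Krt18 had 6 members among 19 regions within 100 kb and Krt8, whose window overlaps, 5 among 18, with 0 regions of 12 h alone or of both TGFβ lists only, while Krt7 had 5 among 17 with 3 found at 12 h alone. Another lay in an intron of F11r, a tight junction protein, 3896 bp from its 5′ end. Regulators of epithelial identity had 16 of 99 (16.2%, 10.2 to 24.7), counted over 14 of the 16 listed genes, since 2 were not found under their names in the annotation. Klf5, a growth regulator of epithelia, had 4 among 7 regions, and Grhl3, needed for the epidermal barrier, had a member 25471 bp from its 5′ end with an AP-1 site.

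Mesenchymal and matrix genes had the lowest share. Of the 144 regions near them, 9 (6.25%, 3.32 to 11.5) belonged to the 2 h alone class and 31 (21.5%) to the 12 h alone class, against 12.4% and 14.4% near protein-coding genes at large. The 9 belonged to 6 of 20 genes. The closest overlapped exons of the integrin genes Itga5 and Itgav (13600 and 16262 bp from the 5′ ends) or lay 22078 bp from Col1a1, the main collagen of bone and skin. Itga5 had 4 of the 9 among 14 regions. Genes of actin and stress fibres had 22 of 200 (11%, 7.38 to 16.1) and 14 found at 12 h alone, with 6 members at Myh9, non-muscle myosin, among 21 regions. As 1 of 11 lists, and with regions of a gene close together, the low share of matrix genes has no test.

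Growth factors and cytokines had 21 of 154 (13.6%, 9.10 to 19.9), among them the region over the start of Wnt4, one in an intron of Lif 1330 bp from its 5′ end, one 2057 bp from Ereg, a ligand of the EGF receptor, and one in an intron of Vegfa. A list of cell cycle genes, which holds inhibitors such as Cdkn1a, drivers such as Ccnd1 and the Id genes, had the highest share, 26 of 155 (16.8%, 11.7 to 23.4), with an interval that held the 12.4% near protein-coding genes at large, and 12.3% found at 12 h alone. Id1 and Id3, inhibitors of differentiation that BMP and TGFβ control, had regions 2877 and 4242 bp from their 5′ ends, of 889 and 334 bp. Id1 had 4 members among 16 regions within 100 kb, and the second, 8855 bp away, held 2 AP-1 sites (chr2:152552455-152553132). A member 7743 bp from Gadd45a, a stress gene, also held 2, besides a site of each FOX form.

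**Figure D5:**
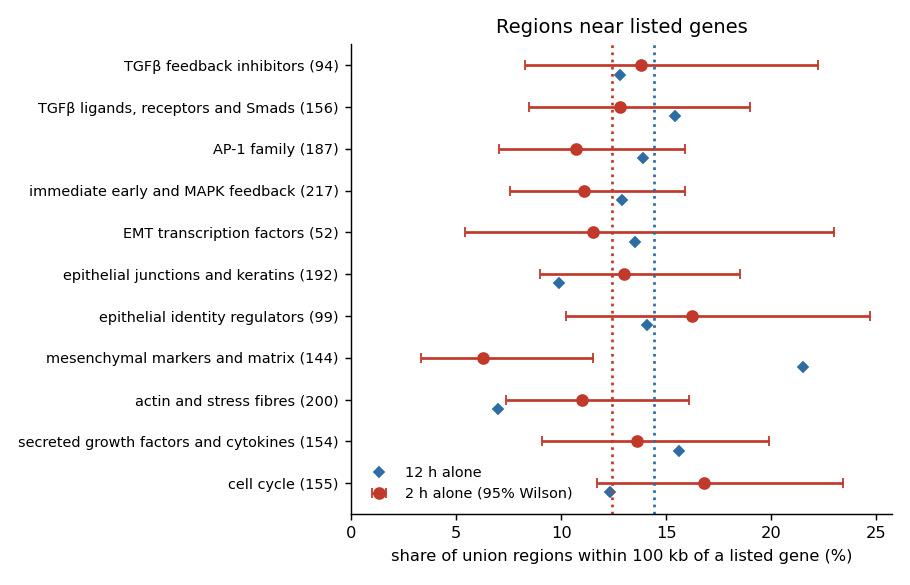
Share of the union regions near listed genes, up to 100 kb from their 5′ ends (horizontal axis, percent) that were found at 2 h alone (circles, bars 95% Wilson intervals) or at 12 h alone (diamonds), for 11 gene lists (rows, number of regions in brackets). Dotted lines give the shares near all protein-coding genes, 12.4% and 14.4%. The matrix list had 6.25% for the first and 21.5% for the second.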

How the data were processed

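Reads were processed by the authors with the ENCODE ATAC-seq pipeline, aligned to mm9 and peaks called with MACS2 2.1.2. Peaks that both replicates reproduced (irreproducible discovery rate) were deposited as 1 list of coordinates per condition. A score column, which the authors deposited with no scale given, was not used. Identical lines were counted once. Following the methods of the study, intervals under 150 bp were dropped and those closer than 1000 bp merged, first per list and then across the 3 lists. With no value for a single replicate, no test between conditions was run. Peak depth is unknown here.

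Start sites were the 86879 distinct 5′ ends of GENCODE vM1 transcripts on NCBIM37, while the study used another gene set. Motifs were exact matches to a consensus on both strands. Besides those spelled out in the report these were TGACGTCA for the cyclic AMP element, CCGGAAGT for ETS factors, ACATTCCA for TEAD, AACCGGTT for GRHL, GCGCATGC for NRF1 and TTCCNGGAA for STAT factors. The E-box CACGTG, the GATA factor site AGATAAG and the consensus of CTCF, NF-I, SRF, NF-κB, the glucocorticoid receptor and p53 were also searched. Matches of GC-rich motifs can overlap. Shares have Wilson and differences Newcombe intervals (95%, or 99.8% over the 22 motifs), and stratified odds ratios are Mantel-Haenszel. These cover counting error only: regions are neither replicates nor independent.

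Named regions were the 5 widest members and the 5 widest at protein-coding starts, the 6 genes with the most members, up to 4 members closest to the genes of each list, the 5 widest distal members with both AP-1 and the SMAD palindrome, the 3 with the most AP-1 sites, the 3 largest runs, and 3 regions either side of the merge distance. The regions of 1 listed gene are not reported here. Members and lists were chosen with earlier results of these data known. Interval functions were tested on simulated data. Python 3.11.15, numpy 2.4.6, pandas 2.3.3, scipy 1.17.1, pysam 0.24.0 and matplotlib 3.10.9 were used. Coordinates are 1-based.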

Additional observations from a re-analysis of the deposited data

How the results depend on the processing

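The differences in AP-1, FOX, CEBP and NF-κB shares between members and regions found at 12 h alone kept their direction and an interval without 0 under each alternative run, among them other merge distances (0, 500 and 2000 bp), no width minimum or one of 250 bp, autosomes only, the 18337 widest intervals of each list, windows of 200 bp or whole regions, strata of width or GC content, and start sites included. For the last 3 motifs these were added after the data were seen. The AP-1 difference ran from -16.3 to -13.2 points, and that from regions of both TGFβ lists only from -25.1 to -10.4 points.

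With the widest intervals of each list, members numbered 2140, their median width was 610 bp and 14.5% lay at start sites, and the CTCF difference was 0.194 and the SMAD palindrome difference -0.0217 points, both intervals holding 0. With a minimum of 250 bp, the median width was 407 bp, 24.1% of members lay within 10 kb of a vehicle region and the CTCF difference, 0.599 points, held 0. The SMAD difference also held 0 with a merge distance of 2000 bp (-0.341), autosomes only (-0.393), windows of 200 bp (-0.218) and width strata (odds ratio 0.688). Merging at 0 bp gave a median width of 336 bp, 12.1% at start sites and 31.5% within 10 kb of a vehicle region, and 27.9% lay so close when merged at 500 bp and 23.3% at 2000 bp. The share at start sites was 7.04% within 500 bp, 25.8% within 5000 bp and 7.67% for protein-coding starts, and 12.8% and 50.5% of members lay within 5 and 25 kb of a vehicle region. Of 138 recomputed values, 116 kept their call or stayed within the interval of the reported value. The number of members has no interval and was counted as kept when it changed by less than a set factor. In every run but that of the widest intervals it was so counted, and it went from 4259 (minimum of 250 bp) to 6035 (merging at 0 bp).

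No paired analysis was possible because each list combines both replicates of a condition.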

Other observations

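Beyond the panel, the KLF box CACACCC, taken from the ranking of 7-base words and so a description, was present in 15.4% of distal members (14.4 to 16.5), in 10.8% of regions found at 12 h alone and in 9.71% of the flanks of members. It was also present in 17% of regions shared by vehicle and 2 h and in 15.5% of those in all 3 lists. The ETS-like word CAGGAAG followed with 25.2% against 21.0%, and TGTGCAA, part of the CEBP site, with 10.2% against 6.21%.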
